A study of Mus musculus with 72 samples.

Results

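The regions described here are the H3K27me1 sites with the strongest enrichment over IgG in a study of stress in mice. H3K27me1 is the single methyl mark on lysine 27 of histone H3, and IgG is an antibody without a chromatin target that gives the background of the assay. The authors deposited tables of sites where the mark differed between stressed and control mice, each with an enrichment, the ratio of the mark's reads to IgG reads, in both groups. A site was taken where it lay on an autosome and the larger of the 2 enrichments was at least 5. This gave 1507 of 12124 autosomal sites in the table of susceptible over control and 791 of 7011 in the table of resilient over control, 2298 in all among 36113 sites in the 5 deposited tables. Because the members were chosen by values of these 2 comparisons, their levels and changes in them are given as descriptions. No test of these comparisons is read as a result about them.

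All libraries came from the nucleus accumbens, a part of the striatum that processes reward, of wild-type male mice. CUT&RUN uses an antibody to bring micrococcal nuclease to the mark, and the enzyme then releases the DNA around it. Chronic social defeat stress (CSDS) gave the susceptible and resilient groups, set against control mice, with 4 H3K27me1 and 4 IgG libraries each. A second cohort gave mice with early life stress (ELS) and subthreshold defeat, set against mice labelled Std - Control, with 3 H3K27me1 libraries each. Susceptible and resilient mice were compared with the same 4 control libraries. The labels do not say that each library came from its own mouse, so the spread between libraries may be technical in part, and a whole-tissue sample cannot tell a change in every cell from a change in the mixture of cells. Per the file headers, 1000-bp bins held a mean of 20.57 to 30.39 reads in the CSDS H3K27me1 libraries and the ELS cohort's 5.0 to 7.78, so values of the ELS cohort rest on fewer reads.

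H3K27me1 is generally found over the bodies of transcribed genes, whereas H3K27me3, the trimethyl form made by Polycomb repressive complex 2 (PRC2), marks silent genes. Both EZH1 and EZH2, the catalytic subunits of PRC2, can add the methyl groups, and the demethylases UTX and JMJD3 take them off H3K27me3 and H3K27me2. A high ratio of mark to IgG can come from much mark, from little background, or from both. The deposited values allow an IgG level to be derived, but IgG reads themselves were not counted here.

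The strongest site of the susceptible table lay in Cox15, which encodes an enzyme that makes heme A for mitochondrial cytochrome oxidase, and that of the resilient table lay in Iars, the cytosolic isoleucyl-tRNA synthetase. Of the 10 strongest sites of each table, 7 in the susceptible and 5 in the resilient table crossed an exon. For 3 of the strongest sites of each table with a coding piece of at least 60 bases, that piece is printed here, to show what kind of sequence the sites cover. They were read from GENCODE M21 transcripts (mm10, the files' build), on the strand of the gene, with CG, the dinucleotide that DNA methylation uses, in capitals.
Cox15, exon 6 of 9, chr19:43741833-43741914, minus strand: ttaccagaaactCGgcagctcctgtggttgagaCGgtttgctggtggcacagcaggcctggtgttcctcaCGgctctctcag
Zfp64, exon 5 of 6, chr2:168935211-168935462, minus strand: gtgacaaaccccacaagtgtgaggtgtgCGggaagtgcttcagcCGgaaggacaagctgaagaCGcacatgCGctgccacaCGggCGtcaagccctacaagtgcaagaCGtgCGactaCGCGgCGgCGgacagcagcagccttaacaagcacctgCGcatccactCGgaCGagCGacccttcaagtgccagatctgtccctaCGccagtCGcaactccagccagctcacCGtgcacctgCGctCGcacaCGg
Iars, exon 16 of 33, chr13:49711750-49711836, plus strand: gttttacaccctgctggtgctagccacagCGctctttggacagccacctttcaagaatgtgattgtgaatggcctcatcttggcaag
Gtpbp10, exon 6 of 8, chr5:5543291-5543368, minus strand: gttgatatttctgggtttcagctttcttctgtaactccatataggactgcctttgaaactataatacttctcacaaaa
Riok1, exon 13 of 17, chr13:38056162-38056227, plus strand: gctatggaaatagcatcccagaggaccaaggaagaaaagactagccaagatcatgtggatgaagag
Nifk, exon 3 of 7, chr1:118327625-118327733, plus strand: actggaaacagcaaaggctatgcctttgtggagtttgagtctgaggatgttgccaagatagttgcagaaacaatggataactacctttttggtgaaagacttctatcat

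The 6 pieces ranged from 22 CG in the 252 bases of Zfp64, a zinc-finger protein, to none in the 78 bases of Gtpbp10. G and C made up 62.3% of the Zfp64 piece and 34.6% of the Gtpbp10 piece. Each piece is a part of its site, and the composition of the rest of the site was not read. Coding sequence of at least 100 bases was present in 447 of 1507 strongly enriched sites of the susceptible table (29.7%), against 16.5% of the other autosomal sites. The resilient table had it in 180 of 791 (22.8%), against 12.6%. Where it was present, CG was found in nearly every site, 96.4% of strongly enriched sites and 97.3% of the other sites of the susceptible table, and 93.3% and 94.5% in the resilient table. The median GC of this coding sequence was 50.7% (quartiles 45.2% and 55.2%) in strongly enriched sites and 52.3% in the other sites of the susceptible table, and 50% and 49.6% in the resilient table. By base composition the coding parts of strongly enriched sites thus lay close to those of other sites.

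Enrichment at the strongest sites stood against a modest change in the mark itself. At the Cox15 site (chr19:43741501-43742700, exon 6 and the introns beside it) the 4 susceptible libraries had 165, 122.8, 169 and 153 normalised reads and the 4 control libraries 162, 218, 190 and 175. These are reads in the site divided by a constant for each library, and libraries are given in the order of their numbers. The groups overlapped, with means of 153 ± 21 in susceptible and 186 ± 24.02 in control (SD, n = 4 each) and a log2 ratio of −0.29. Its enrichment, however, was 3.97 in susceptible mice and 14.40 in controls. Dividing each mean by its enrichment gives the IgG level that the enrichment implies, 38.4 reads in susceptible and 12.9 in control.

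Iars, the strongest site of the resilient table, was strongly enriched in both tables. Its site in the resilient table (chr13:49711801-49712800) held 198, 182, 170 and 159 reads in resilient libraries and 256, 190, 236 and 187 in control libraries, groups that overlapped. The enrichment was 7.36 in resilient and 13.71 in control, with implied IgG of 24.04 and 15.8 reads. In the susceptible table a longer site there (chr13:49711501-49713200) averaged 294 ± 37.4 reads in susceptible and 359 ± 48.7 in control libraries (log2 ratio −0.29), with enrichments of 6.37 and 12.19.

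**Figure D1:**
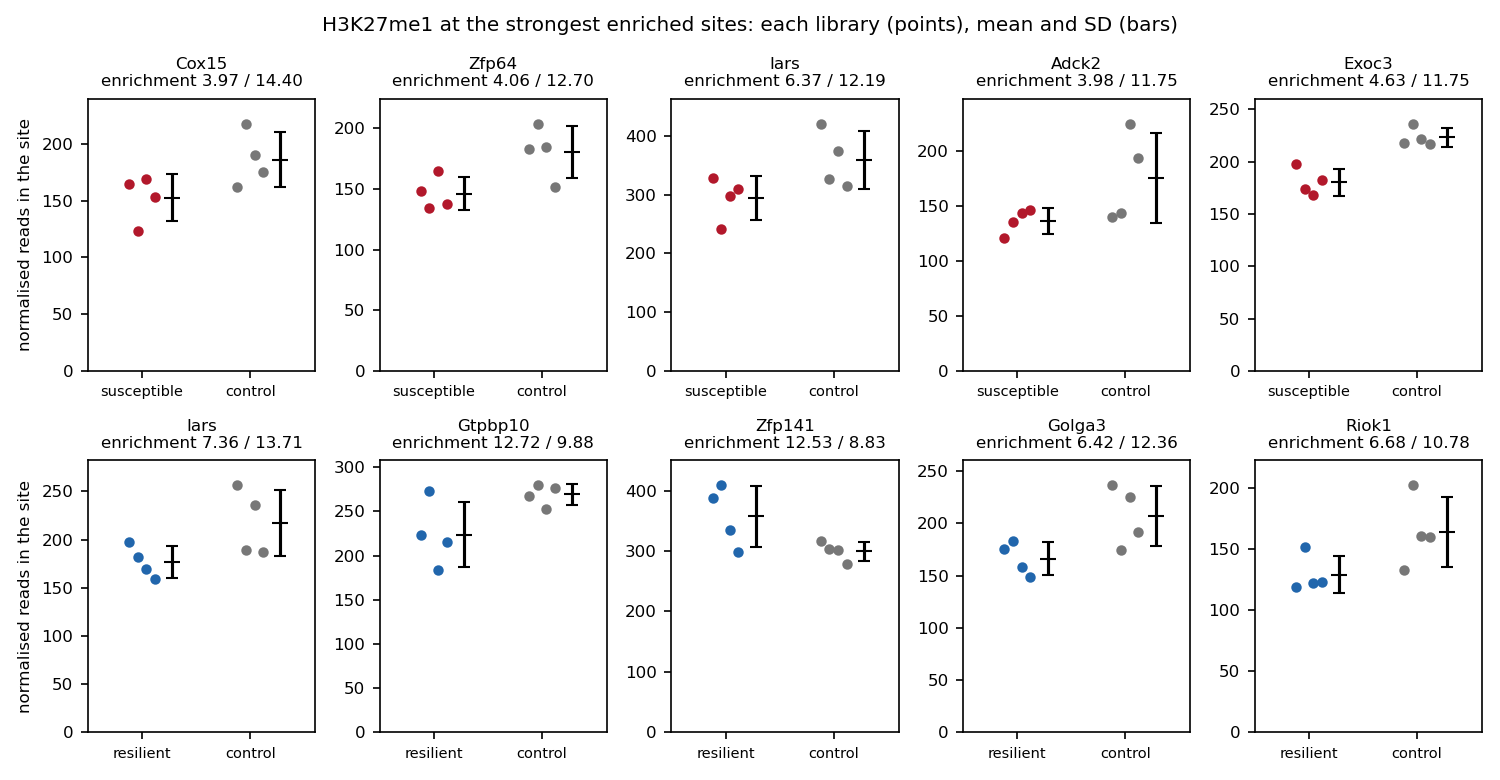
Normalised H3K27me1 reads in the site (vertical axis, from 0) for each library (points) with mean and SD (bars) at the 5 most enriched sites in genes with an established symbol, susceptible and control in the upper row, resilient and control in the lower row; the enrichment of the stress group and of control stands above each panel. At Cox15 the susceptible libraries sit between 122.8 and 169 and the control libraries between 162 and 218, a small gap beside enrichments of 3.97 and 14.40.

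Exoc3, a subunit of the exocyst that tethers secretory vesicles, had 198, 173, 168 and 182 reads in susceptible libraries against 218, 236, 222 and 217 in control libraries. Its groups did not overlap, and its enrichment was 4.63 in susceptible and 11.75 in control. Zfp64 had an enrichment of 4.06 in susceptible and 12.70 in control, with 146 ± 13.5 and 181 ± 21.6 reads. Adck2, a mitochondrial protein of the atypical kinase family, had 3.98 and 11.75, and Med20, a subunit of the Mediator complex that links transcription factors to RNA polymerase II, 4.96 and 10.95. All 4 had a lower mean in susceptible than in control mice. The predicted gene 3300002I08Rik had the second highest enrichment, 7.23 in susceptible and 14.00 in control (160 ± 12.4 and 199.5 ± 9.67 reads). A site between genes at chr12:22944101-22945100 came next after Zfp64, with 3.13 and 12.37. Of the 10 most enriched sites of the susceptible table, the only one with more reads in susceptible mice was in 5730480H06Rik, with 284 ± 34.7 reads in susceptible and 237 ± 15.9 in control and enrichments of 11.12 and 8.27.

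In the resilient table Gtpbp10, a GTPase of mitochondrial ribosome assembly, followed Iars. It held 223, 273, 183 and 216 reads in resilient libraries against 268, 280, 253 and 276 in control libraries, so that the groups overlapped. Its enrichment was 12.72 in resilient and 9.88 in control although its reads were lower in resilient mice, since the implied IgG was 17.6 reads in resilient and 27.2 in control. Zfp141, a zinc-finger gene of chromosome 7, had 388, 409, 334 and 299 reads in resilient against 316, 303, 302 and 278 in control libraries, with enrichments of 12.53 and 8.83. Golga3, a golgin of the Golgi apparatus, and Riok1, an atypical kinase of ribosome maturation, had 6.42 and 12.36, and 6.68 and 10.78. Hjurp, the chaperone that loads the centromeric histone CENP-A, had far more reads than any of these, 1277 ± 126 in resilient and 1178 ± 75.3 in control libraries. Its enrichment of 10.39 in resilient and 7.79 in control was no higher, as its implied IgG was 122.9 and 151 reads. Whether reads from near-identical copies add to both the mark and the IgG at Hjurp was not tested.

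The values behind the ratio can be given for all strongly enriched sites. The median level of the mark was 122.7 reads per kb in susceptible and 130 in control at strongly enriched sites, and 85.3 and 84.1 at the other autosomal sites of that table. The implied IgG was 28.9 reads per kb in susceptible and 24.5 in control at strongly enriched sites, and 32.3 and 32 at the others. For the resilient table the mark was 120 in resilient and 131 in control at strongly enriched sites, against 85.8 and 84.1 at the others, and the implied IgG was 27.9 and 24.5, against 34.2 and 32.6. More mark and less background are what a limit on their ratio selects, and 898 of 1507 and 404 of 791 sites passed through the control group alone, so these values describe the choice and are no finding. Their lengths were like those of other sites, with a median of 1200 bp against 1100 bp in the susceptible table and 1100 bp in both sets of the resilient table.

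**Figure D2:**
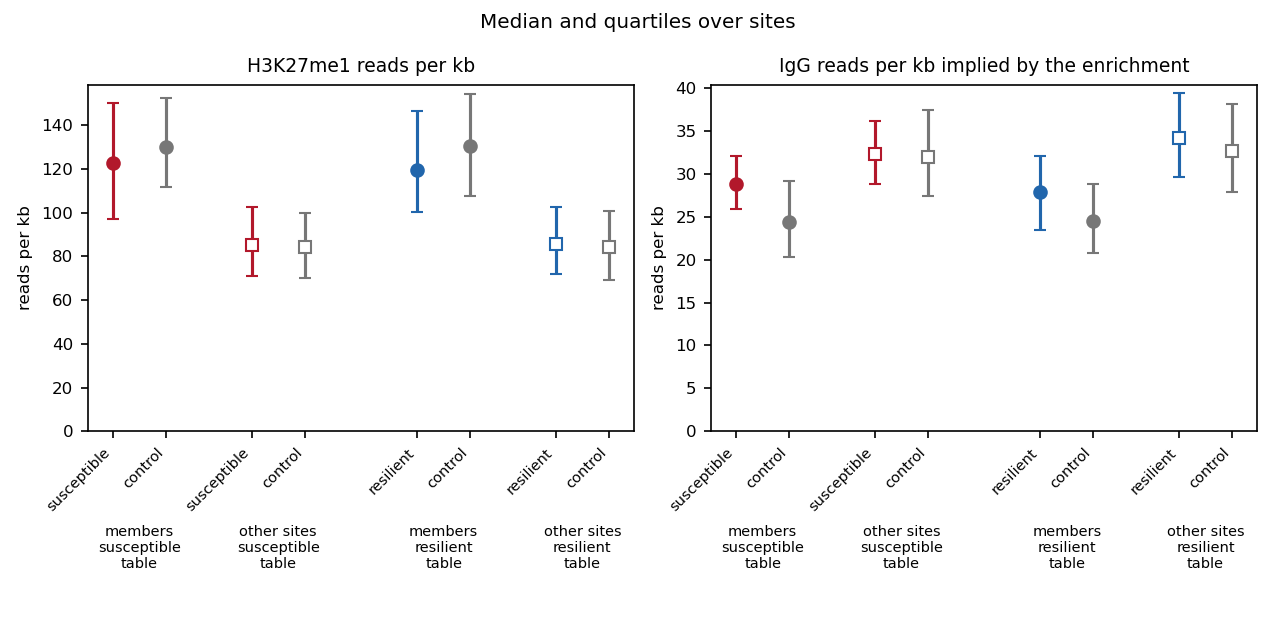
H3K27me1 reads per kb (left panel) and the IgG reads per kb implied by the enrichment (right panel) in the stress group and in control, as medians with quartiles over sites; filled circles are the strongly enriched sites and open squares the other autosomal sites of the same table. The filled circles lie higher for the mark (122.7 in susceptible, against 85.3 at other sites) and lower for IgG (28.9 in susceptible and 24.5 in control, against 32.3 and 32).

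Of the 1507 strongly enriched sites of the susceptible table, 237 (15.7%) reached 5 in both groups, 372 in susceptible mice alone and 898 in control mice alone. Of the 791 of the resilient table, 163 (20.6%) reached 5 in both groups, 224 in resilient mice alone and 404 in control mice alone. The median of the larger enrichment was 5.76 and 5.75, and 16 and 15 sites reached 10. At the limit of 5, sites in Gucy1a2, Ints14 and between genes on chromosome 7 had a control enrichment of 5.0 in the susceptible table, while sites in Shprh and Dtymk (control 4.99) and Creb1 (susceptible 4.99) fell outside. On the resilient side Cbl (control 5.0), Nr3c2 (resilient 5.0) and a site between genes on chromosome 7 (resilient 5.0) lay just inside, and Fmn2 (control 4.99), Adck1 and Nvl (resilient 4.99) just outside. Nr3c2 encodes the mineralocorticoid receptor, and its site averaged 208 ± 17.6 reads in resilient and 162 ± 16.5 in control libraries.

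The direction of the mark followed closely which group had passed the limit, which the rule itself brings about. Of the 372 sites that passed in susceptible mice alone 367 were higher in susceptible mice, and of the 898 that passed in control alone 44 were. For resilient over control these were 215 of 224 and 19 of 404. Where both groups reached 5, 51.1% were higher in susceptible and 34.4% in resilient mice. Susceptible over control, 532 were higher and 975 lower, 35.3% higher, against 52.4% of the other autosomal sites. Resilient over control, 290 were higher and 501 lower, 36.7% higher, against 53.5% of the others. The median log2 ratio was −0.33 for susceptible over control and −0.31 for resilient over control, against 0.33 and 0.34 at the other sites. The changes were moderate in size and ranged from −0.63 to 0.48 in the susceptible table and from −0.64 to 0.58 in the resilient table, inside the ranges of the other sites (−0.95 to 0.93 and −0.80 to 0.87). All 1507 and all 791 passed the authors' adjusted p of 0.05, as did 100% and 99.9% of all autosomal sites listed (50.3% higher and 49.7% lower in the susceptible table, 51.6% higher and 48.3% lower in the resilient table), because the tables hold sites chosen by that test. It pools the reads of each group and does not use the spread between libraries.

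Libraries can be set beside these calls. The 4 stressed libraries all lay outside the range of the 4 control libraries at 647 strongly enriched sites of the susceptible table (42.9%), against 52.8% of all its autosomal sites, and at 377 of the resilient table (47.7%), against 54.7%. Since the members were chosen on this contrast, no meaning is read from those shares. At the 975 lower sites the susceptible libraries had medians of −0.37, −0.49, −0.28 and −0.34 on the log2 scale relative to the control mean, and at the 532 higher sites of 0.39, 0.45, 0.19 and 0.31. The library with the weakest shift was the same in both directions, number 32. The 4 resilient libraries were more even, −0.33 to −0.38 at lower sites and 0.35 to 0.39 at higher sites, and the control libraries stayed between −0.11 and 0.08.

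The direction of the mark and the direction of the enrichment mostly went together, and the implied IgG differed between groups as well. A limit on the ratio selects low IgG in the group that passed, so this difference is a description too. Among the 975 lower sites of susceptible mice, 961 had the larger enrichment in control, and among the 532 higher sites 438 had it in susceptible mice. For resilient mice these were 472 of 501 and 243 of 290. At the lower sites of the susceptible table the median enrichment was 3.57 in susceptible and 5.86 in control, the mark 105 and 136 reads per kb, and the implied IgG 29.6 and 22.3. At the lower sites of the resilient table the implied IgG was 29.2 in resilient and 23.7 in control. At the higher sites it was 27.6 in susceptible and 29.8 in control, and 25.2 in resilient and 26.9 in control. The median size of the IgG difference was 0.37 on the log2 scale at strongly enriched sites and 0.23 at the other sites of the susceptible table, and 0.35 and 0.22 in the resilient table. The part of the IgG difference in the choice of these sites was not tested.

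By position the strongly enriched sites lay in gene bodies, with exons over-represented relative to the other sites listed. Each site was placed by GENCODE M21 as gene start or gene end (within 1000 bp), exon, intron or intergenic, with coding genes taken before others. For susceptible over control, 40.9% of strongly enriched sites crossed an exon, 44.9% lay in an intron, 5.0% at a gene end, 0.4% at a gene start and 8.8% between genes. The other autosomal sites had 23.7% in exons, 61.2% in introns, 4.8% at gene ends, 1.2% at gene starts and 9.0% between genes. For resilient over control, 37.9% crossed an exon and 45.6% lay in an intron, against 21.2% and 63.02% of the other sites, with 3.8% at gene ends, 1.1% at gene starts and 11.5% between genes. Along protein-coding genes, 14.5% lay in the first 25% of the gene body in the susceptible table and 13.0% in the resilient table, against 21.8% and 22.5% of the other sites.

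Direction differed with position, and in both tables the exon sites were mainly lower. Of the exon sites 130 of 616 (21.1%) were higher in susceptible mice and 74 of 300 (24.7%) in resilient mice, against 25.03% and 32.1% of other exon sites. Intron sites were higher in 371 of 677 (54.8%) for susceptible mice and in 128 of 361 (35.5%) for resilient mice, against 66.5% and 58.3% of other intron sites. At gene ends 19 of 75 were higher in susceptible and 14 of 30 in resilient mice, against 24.3% and 41.6% of other sites there. The few sites at gene starts were lower in 6 of 6 cases in susceptible mice and higher in 9 of 9 in resilient mice, where 21.4% and 60.3% of other start sites were higher. Because both comparisons use the same control libraries, the counts of the 2 tables are not separate evidence.

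**Figure D3:**
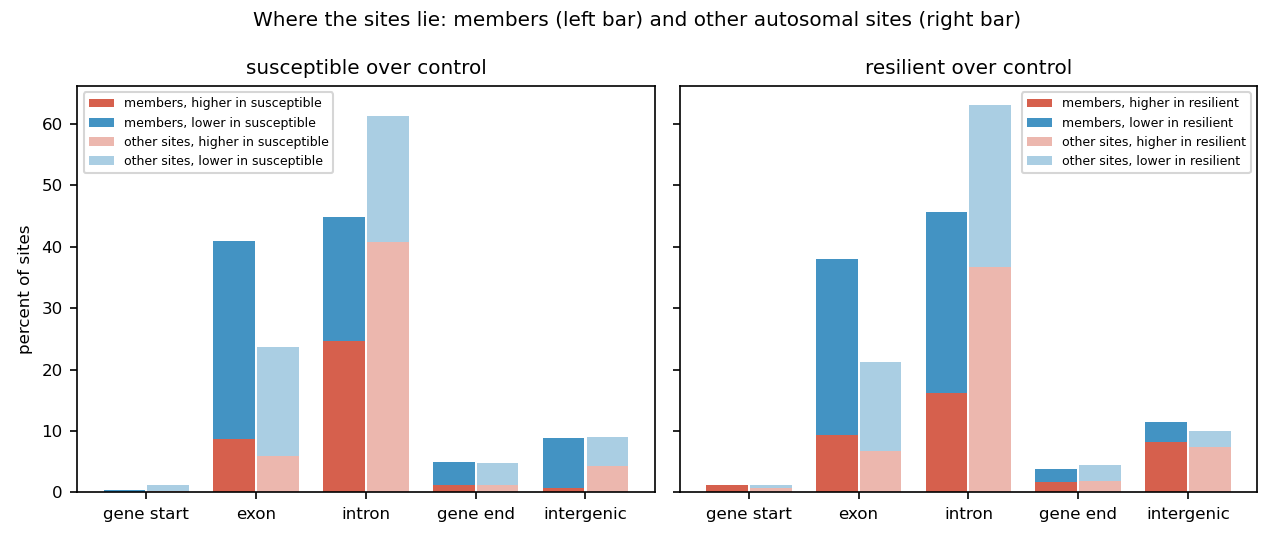
Share of sites (percent) at gene starts, exons, introns, gene ends and between genes, with the strongly enriched sites as the left and the other autosomal sites as the right bar of each pair; red is higher and blue lower in the stress group than in control. Exons hold 40.9% of the strongly enriched sites of the susceptible table against 23.7% of the others, and most of the exon bars are blue.

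Sites between genes were concentrated in a pair of regions, which held 87 of 133 in the susceptible table and 69 of 91 in the resilient table. On chromosome 12 from 15 to 25 Mb, 88 strongly enriched sites of the susceptible table included 1 higher and 87 lower, whereas 54 of the resilient table included 36 higher and 18 lower. On chromosome 7 up to 35 Mb, 0 of 36 were higher in susceptible mice and 32 of 40 were higher in resilient mice. Neighbouring sites are not separate observations, and the difference between susceptible and resilient was not tested. Whether near-identical copies share reads in these regions was not tested either. Of the other sites of the chromosome 12 and chromosome 7 regions, 12.4% and 14.7% were higher in susceptible mice and 64.9% and 81.4% in resilient mice. Outside these regions 11 of 46 intergenic sites were higher in susceptible and 14 of 22 in resilient mice, and over all positions outside them 38.4% of strongly enriched sites were higher in susceptible and 31.9% in resilient mice.

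Protein-coding genes held or adjoined 88.3% of strongly enriched sites of the susceptible table and 84.7% of the resilient table, close to the 88.2% and 87.4% of other sites. These genes were shorter than those of other sites, with a median length over sites of 53.7 kb against 118 kb in the susceptible table and 56.5 kb against 116 kb in the resilient table. Length went with direction, most clearly in susceptible mice. In genes over 100 kb, 271 of 379 strongly enriched sites (71.5%) were higher in susceptible mice. In genes up to 20 kb 24 of 184 (13.0%) were, and in genes of 20 to 100 kb 218 of 767 (28.4%). For resilient mice the shares were 41.99%, 18.1% and 26.8%. Other sites followed length too, with 75.8% higher in susceptible mice in genes over 100 kb and 8.2% in genes up to 20 kb. Coding sequence of lower sites was richer in G and C than that of higher sites, with medians of 52.04% and 43% in the susceptible table (53.6% and 43.2% at other sites) and 50.8% and 48.1% in the resilient table (50.4% and 47.7%). The part of base composition in the direction was not tested.

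The genes were numerous and mostly hit at a single site. Strongly enriched sites lay in 970 genes in the susceptible table, 721 of them with 1 such site and 80 with 3 or more, and in 584 genes in the resilient table, 496 with 1 and 20 with 3 or more. The 279 genes in both made up 28.8% of the susceptible and 47.8% of the resilient genes. A grouping into 26 gene lists, which took in 433 and 246 of the sites, shows which functions they cover. The counts that follow are site counts, and several sites of a gene are not separate observations. They are to be read beside the 35.3% of all strongly enriched sites that were higher in susceptible mice and the 36.7% in resilient mice, and beside the other sites of the same list.

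Basal transcription and Mediator genes held 32 strongly enriched sites in the susceptible table, 3 higher and 29 lower (median log2 −0.33), and 11 in the resilient table, 4 higher and 7 lower. That is 9.38% and 36.4% higher, against 26.4% and 32.8% of the other sites of these genes. Med23, another Mediator subunit, had all 5 of its listed sites among them in the susceptible table, all lower. Its strongest averaged 293 ± 38.6 reads in susceptible and 354 ± 26.9 in control libraries, with enrichments of 7.32 and 10.44. Taf2, a subunit of TFIID, had 7.17 and 9.06 (log2 −0.28), and Polr1b, a subunit of RNA polymerase I, 5.30 and 9.22 (log2 −0.26). Among resilient sites Cdk7, the kinase of TFIIH, averaged 141 ± 26.5 reads in resilient and 177 ± 17.7 in control (log2 −0.33), and Gtf3c3, a subunit of TFIIIC, was higher, 204 ± 17.8 and 164 ± 23.8 (log2 0.31). Splicing and 3′ end processing genes had 4 higher and 14 lower sites in susceptible and 1 higher and 10 lower in resilient mice (22.2% and 9.09% higher, against 23.5% and 23.9% of their other sites), among them Thoc1, of the complex that couples transcription to RNA export (log2 −0.28 and −0.29).

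Translation factors and tRNA synthetases had 2 higher and 16 lower sites in the susceptible table and 1 higher and 11 lower in the resilient table. Of their other sites 20.9% and 16.7% were higher. Besides Iars, Rars2, the mitochondrial arginyl-tRNA synthetase, had 168 ± 11.01 reads in susceptible and 215 ± 30.3 in control, and Eif2a, an initiation factor, 130 ± 20.2 in resilient and 168 ± 8.78 in control. Ribosomal protein genes, among them the mitochondrial ones Mrpl15 and Mrps31, had 1 higher and 6 lower sites in susceptible and 0 higher and 5 lower in resilient mice, against 20.7% and 33.3% higher at their other sites. Nuclear genes of mitochondrial energy metabolism had 3 higher and 11 lower in susceptible mice, led by Cox15 and the complex I subunits Ndufb5, Ndufa9 and Ndufa10, and 3 higher and 3 lower in resilient mice. Their shares, 21.4% and 50% higher, lay at those of their other sites, 21.1% and 48.7%.

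Protein turnover and traffic gave the largest groups. Ubiquitin ligases, deubiquitinases and proteasome genes held 61 sites in the susceptible table (16 higher, 45 lower) and 38 in the resilient table (9 higher, 29 lower), where 36.7% and 36.1% of their other sites were higher. Ubr4, a very large ubiquitin ligase, had 7 such sites, all lower in susceptible mice. Its strongest had 252, 196, 214 and 224 reads in susceptible libraries against 312, 313, 285 and 253 in control libraries, groups that did not overlap. Anapc1, the largest subunit of the anaphase-promoting complex, had its most enriched site lower in both tables (log2 −0.37 in each), although 1 of its 3 sites in the resilient table was higher. Vesicle traffic, sorting and autophagy genes held 65 sites (17 higher, 48 lower) and 47 sites (10 higher, 37 lower), where 42.2% and 50.3% of their other sites were higher. Golga3 had 5 sites in the susceptible and 4 in the resilient table, each the whole of its listed sites, and all were lower. Sec24b, of the COPII vesicle coat, had 141 ± 13.9 reads in resilient and 181 ± 22.3 in control libraries, while Golga1 was higher, 189 ± 24.97 and 150 ± 17.9.

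Chromatin regulators differed between the tables in the direction of sites, but by gene most were lower in both. They held 39 sites in the susceptible table, 18 higher and 21 lower, and 19 in the resilient table, 2 higher and 17 lower, where 26.6% and 32.8% of their other sites were higher. Of their 21 genes in the susceptible table, 14 had only lower sites, 3 only higher and 4 both. Of their 18 genes in the resilient table, 16 had only lower and 2 only higher sites. The difference between susceptible and resilient was not tested. Lower in susceptible mice were Sin3b, a scaffold of histone deacetylase complexes (log2 −0.37), Hira, a chaperone of histone H3.3 (log2 −0.25), and Nsd3, a histone H3K36 methyltransferase (log2 −0.32). Mbd5, a methyl-CpG-binding-domain protein, supplied 7 of these sites, 6 of them higher. At its most enriched, which was the lower one, susceptible libraries had 230, 229, 261 and 233 reads against 305, 302, 282 and 303 in control libraries, without overlap. Suz12, a core subunit of PRC2, held a strongly enriched site in the resilient table in an exon toward its 3′ end (chr11:80024201-80025300). It had 63, 74.3, 84.3 and 65.5 reads in resilient against 102, 99.6, 118 and 79.9 in control libraries, with enrichments of 1.84 and 5.07 and a log2 ratio of −0.48. The groups overlapped by 1 library in each, and the implied IgG was 39 in resilient and 19.7 reads in control. Zinc-finger genes held 47 and 27 sites, with 19 higher in susceptible and 9 higher in resilient mice (32.2% and 50% of their other sites).

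Synaptic genes showed the opposite direction in susceptible mice. Some of them are very long, such as Csmd3 at 1211 kb and Grik2 at 694 kb. In genes over 100 kb of any kind, 71.5% of strongly enriched sites and 75.8% of other sites were higher in susceptible mice. The part of gene length in the direction of synaptic genes was not tested. Synaptic adhesion genes held 31 strongly enriched sites, 30 higher and 1 lower (median log2 0.36). Their other sites in the table were higher in 92.6% too, so the direction was not limited to strong enrichment. Of the sites of synaptic adhesion genes 4.0% passed the limit, against 1507 of 12124 autosomal sites in all. The share was 5.6% for neurotransmitter receptor genes and 22.5% for basal transcription and Mediator, which was among the higher lists. Csmd3, a very long gene for a transmembrane protein of neurons, had 11 sites among 93 listed, all higher. The most enriched had 147, 159, 146 and 121 reads in susceptible libraries against 109, 99.1, 127 and 112 in control libraries, a gap with overlap, and enrichments of 7.03 and 3.10. Cntn1, a contactin of neuronal surfaces, had 181 ± 7.35 reads in susceptible and 144 ± 9.6 in control, with enrichments of 5.51 and 8.92. Mdga2 held the lower site, 115 ± 19.8 and 146 ± 9.05. For resilient mice the list had 7 sites, 4 higher and 3 lower, with 71.8% of its other sites higher.

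Neurotransmitter receptor genes held 15 sites in the susceptible table, 14 higher and 1 lower (91.7% of their other sites were higher), 12 of them in Grik2, a kainate receptor subunit, which had more strongly enriched sites than any other gene. The most enriched Grik2 site (chr10:49265801-49266800, intronic) had 161, 145, 103 and 131 reads in susceptible libraries against 111, 126, 75.7 and 99.4 in control libraries, which overlapped (log2 0.39). The GABA-A receptor subunits Gabrb1 and Gabrb2 had log2 ratios of 0.37 and 0.44. Receptor genes of the resilient table held 5 sites, 3 higher and 2 lower (68.9% of their other sites were higher), the most enriched in Grid1, Glrb, Gabra2 and Gabrb1. Presynaptic release and scaffold genes had 13 higher and 2 lower sites in susceptible mice, including Rims2 (112 ± 13.4 reads in susceptible, 84.4 ± 12.2 in control) and Magi2, and 5 higher and 3 lower in resilient mice, where 80.5% and 68.97% of their other sites were higher. Kinases and phosphatases had 14 higher and 10 lower in susceptible and 4 higher and 14 lower in resilient mice, where 39.1% and 44.4% of their other sites were higher. No strongly enriched site of either table lay in the lists of medium spiny neuron identity, immediate early, astrocyte, oligodendrocyte, vascular or histone genes. These lists were also thin among the other sites, with 18, 1, 3, 1, 0 and 1 in the susceptible table and 16, 0, 2, 0, 0 and 4 in the resilient table in that order. The microglial list had 2 sites, both in Cx3cr1, a chemokine receptor of microglia, and both lower in susceptible mice (227 ± 24.2 reads in susceptible, 289 ± 25.7 in control at the stronger). The stronger also lies in Gorasp1, a Golgi protein gene that overlaps Cx3cr1. It sat 82.4% along an annotated Cx3cr1 of 168.3 kb, so its place in the microglial list is uncertain.

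**Figure D4:**
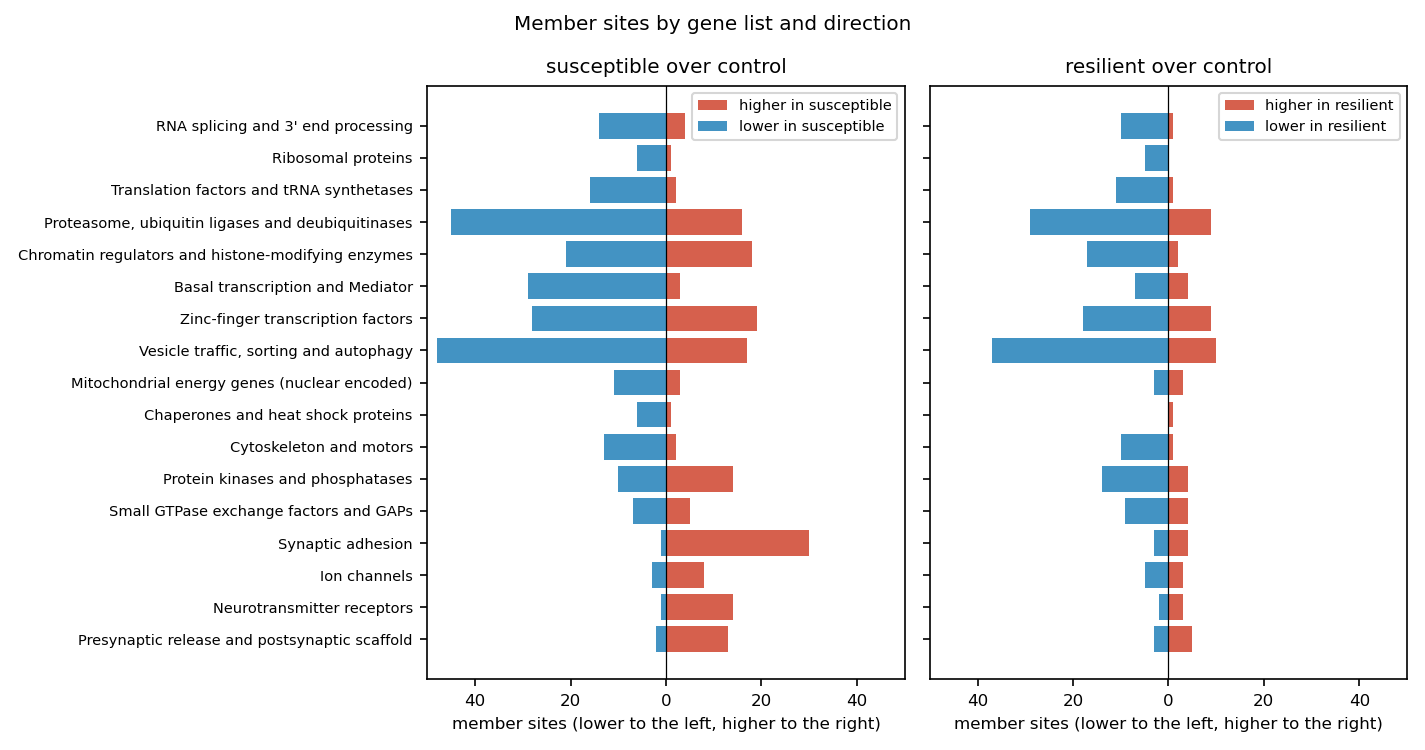
Number of strongly enriched sites (horizontal axis) in each gene list with at least 5 such sites over both tables, higher in the stress group to the right (red) and lower to the left (blue), susceptible over control in the left and resilient over control in the right panel. In susceptible mice synaptic adhesion has 30 higher and 1 lower site, and vesicle traffic 17 higher and 48 lower.

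Among the other genes with many sites, Ascc3, a DNA helicase of the ASCC complex, had 7 sites in the susceptible table, all higher. The strongest had 255, 249, 235 and 245 reads in susceptible libraries against 187, 212, 213 and 197 in control libraries, without overlap, and enrichments of 10.54 and 7.24. Phf14, a PHD-finger protein, had 6 sites, all higher, and Tasp1, the protease that cleaves MLL proteins, 5 higher and 1 lower. Gucy1a2, a subunit of soluble guanylate cyclase, was split evenly, 3 higher and 3 lower. In the resilient table Bdp1, a subunit of TFIIIB for RNA polymerase III, had 1 higher and 4 lower sites. Tut7, a terminal uridylyltransferase, had 0 higher and 4 lower, and Nbea, a neuronal trafficking protein, 3 higher and 1 lower.

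Among the largest changes were sites of fewer reads. Genes with near-identical copies, such as vomeronasal receptors and zinc-finger genes in clusters (Vmn2r60, Zfp141, Zfp992), can share reads and are uncertain. Vmn2r60, a vomeronasal receptor gene on chromosome 7, was the lowest named gene in the susceptible table, with 44.5, 36.1, 56.9 and 55.6 reads in susceptible against 80.0, 64.5, 70.4 and 71.01 in control libraries (log2 −0.57), groups that did not overlap. Castor2, an arginine sensor homologue of the mTORC1 pathway, and Smchd1, a chromatin protein of X inactivation, followed with log2 ratios of −0.54 each. At the Smchd1 site the susceptible libraries spread widely, 47.4, 69.5, 30.3 and 69.3 reads, below 76.3, 81.8, 81.1 and 74.6 in control libraries. Fgf14, a regulator of neuronal sodium channels, was the highest named gene, with 81.0, 84.0, 116 and 88.5 reads in susceptible against 44.1, 80.7, 61.9 and 79.0 in control libraries (log2 0.48), again without overlap. Scaper and Brix1, a ribosome biogenesis factor, had log2 ratios of 0.47 each, and Ctnnd2, the delta-catenin of synapses, 0.45. In the resilient table Cops7b, a subunit of the COP9 signalosome, was the lowest named gene (57.7 ± 7.94 reads in resilient, 81.6 ± 11.05 in control, log2 −0.50), and Mzt2, a component of microtubule nucleation complexes, the highest (93.4 ± 14.3 and 64.6 ± 4.14, log2 0.53).

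Some places were strongly enriched in both tables. Overlaps of at least 1 bp joined 157 sites of the susceptible table (10.4%) with 156 of the resilient table (19.7%). Across all autosomal sites the shares were 13.6% and 23.5%. The control libraries are shared, so an agreement in direction at such places is not independent, and at all 130 windows with the same ends in both tables the control enrichment was identical. Riok1 was 1 of them (chr13:38055901-38056900). It averaged 126 ± 20.8 reads in susceptible and 160 ± 27.7 in control libraries (log2 −0.35), and 129 ± 15.2 in resilient and 164 ± 28.8 in control libraries of the other table (log2 −0.35). The control means differ slightly because each table scaled its libraries by itself. Rap1gds1, an exchange factor of small GTPases, had log2 ratios of −0.29 in susceptible and −0.28 in resilient mice, and Letm1, a mitochondrial inner membrane protein, −0.30 and −0.30. Pwp2, a ribosome biogenesis factor, had −0.31 and −0.23, and Alad, an enzyme of heme synthesis, −0.29 and −0.29.

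The ELS cohort shares no library with the choice of these sites. Its listed sites, however, were chosen by the authors' test of the same ELS and standard control libraries. The limma values below are thus no independent test of a change in ELS mice. Of the 10234 sites listed for ELS with subthreshold defeat over standard control, 24 overlapped a strongly enriched site, 21 of them one of the susceptible and 3 one of the resilient table. Counted by strongly enriched sites these were 20 of the susceptible table (1.33%, against 1.12% of its other sites) and 3 of the resilient table (0.38%, against 0.84%). The larger enrichment at these had a median of 3.29 in that cohort, against 1.26 over all its autosomal sites. By limma on log2(normalised reads + 1), with Benjamini-Hochberg adjustment over all windows the authors tested, 0 of the 24 passed an adjusted p of 0.05, as 0% of all listed sites did. The smallest adjusted p by limma at any listed site was 0.0896, so this limit could not tell the 24 from the rest. At an unadjusted p under 0.05, 11 of 24 passed (98.2% of all listed sites), and 20 of 24 passed the authors' adjusted p, which came from a negative binomial test (96.7% of all). By direction 11 were higher and 13 lower in ELS mice, against 66.7% higher over all listed sites. Libraries of the groups did not overlap at 19 of the 24, against 98.8% of all listed sites (66% higher and 32.8% lower), which the authors' test had selected.

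Orc3, a subunit of the origin recognition complex, had the smallest p of the 24. ELS libraries had 65.4, 73.7 and 62.6 reads against 118, 98.2 and 113 in standard control libraries, without overlap. The limma log2 difference was −0.70 (SE 0.19), with an adjusted p of 0.279 over all windows, while the overlapping site was higher in susceptible mice (log2 0.32). Tbc1d9b, Sos1, which activates Ras, and Agap1 were higher in ELS mice, with limma log2 differences of 0.69, 0.67 and 0.61 (SE 0.19, 0.19 and 0.21), where the overlapping sites were lower in susceptible mice (−0.39, −0.39 and −0.38). The overlaps were of 700, 100 and 500 bp, so at Sos1 the windows compared are neighbours rather than the same sequence. Polr3a, the largest subunit of RNA polymerase III, was lower in both, −0.64 (SE 0.19) in ELS mice and −0.44 in susceptible mice. At Mbd5 a site was higher in both ELS (0.36, SE 0.18) and susceptible mice (0.29), and another was −0.38 (SE 0.18) in ELS mice and 0.38 in susceptible mice. At each of these sites other than Orc3 the adjusted p by limma was 0.404 or more. At Zfp992 the ELS libraries had 239, 244 and 239 reads and the standard control libraries 228, 230 and 243, a limma log2 difference of 0.04 (SE 0.18), yet the authors' deposited table gives an adjusted p of 7.81e-07.

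**Figure D5:**
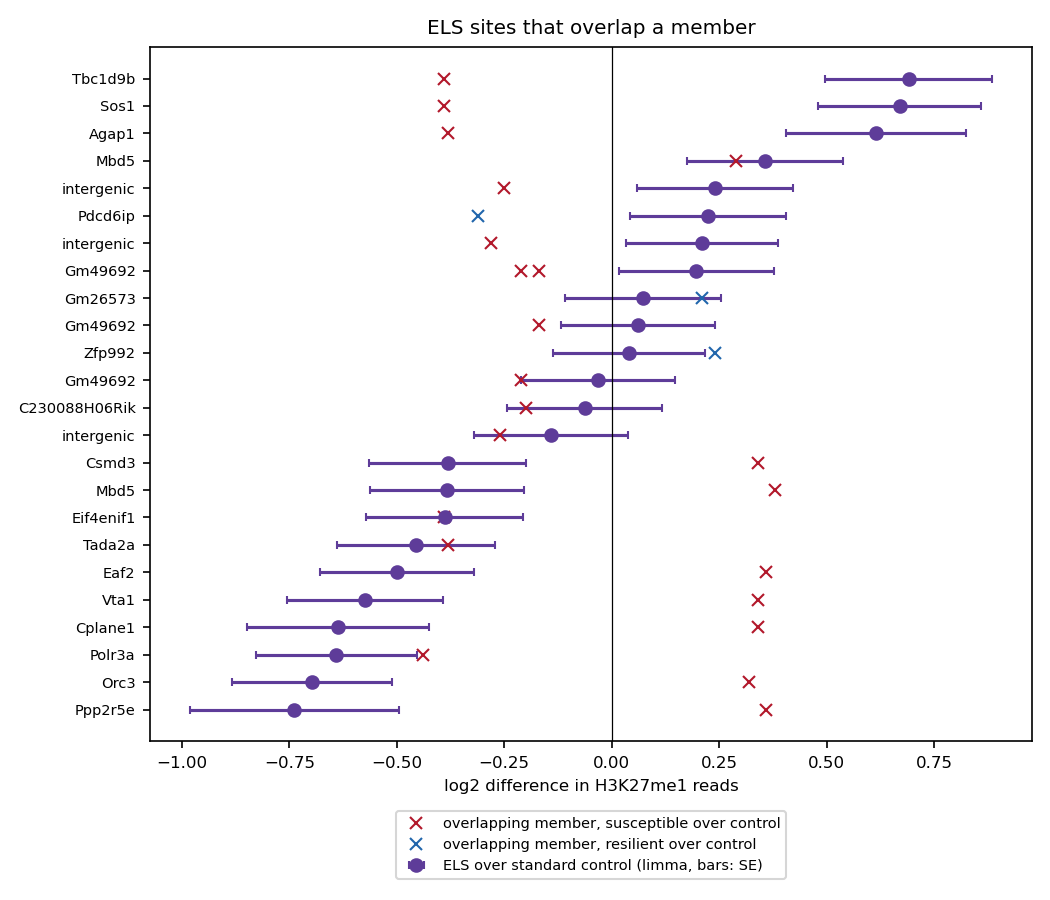
Log2 difference in H3K27me1 reads, ELS with subthreshold defeat over standard control, at the 24 ELS sites that overlap a strongly enriched site (purple points, bars are 1 SE by limma), with the log2 ratio of the overlapping sites in susceptible over control (red crosses) or resilient over control (blue crosses). The SE draws on the variance of all listed sites and is not the spread between libraries at a site alone. At Tbc1d9b, Sos1 and Agap1 the ELS points lie at 0.69, 0.67 and 0.61 and the red crosses at −0.39, −0.39 and −0.38. The Sos1 sites overlap by only 100 bp.

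No strongly enriched site overlapped a site listed for H3K27me2, the dimethyl mark, in either outcome, 0 of 1507 and 0 of 791. Among the other autosomal sites of the susceptible comparison, 28 overlapped an H3K27me2 site of the susceptible and 56 of the resilient comparison (0.26% and 0.53%), and of the resilient comparison 22 and 28 did (0.35% and 0.45%). These tables list only windows that differed by the authors' test, so the level of H3K27me2 at the strongly enriched sites was not analysed here.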

How the data were processed

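Libraries were grouped by their titles. The submitters' processing notes name mm10 and, without their order, Bowtie2 2.4.1, MACS2 2.2.6, SAMtools 1.10, cutadapt 2.10 and Trim Galore 0.6.5. Per the file headers, diffReps 1.55.4 compared windows of 1000 bp (step 100 bp) at a p limit of 0.0001, with a G-test in the CSDS tables and a negative binomial test in the ELS table. The authors' group means are a signal, reads divided by a constant per library, and products of value and constant were whole (within 0.1) in 100% of cases. The deposited enrichment is a ratio to IgG libraries, the deposited log2 fold change is stress over control, and p-values are the authors', adjusted over 270324, 275586 and 1287727 windows in the H3K27me1 tables.

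Log2 ratios here are of group means without a pseudocount. Sites were annotated with GENCODE M21. Limma 3.58.1 (R 4.3.3) was fitted to log2(normalised reads + 1) over all listed sites of a table. On simulated data it was tested for size and direction of change and for false calls, with adjustment over the listed sites alone. That does not show what adjustment over all windows can find. Python 3.11.15 with pandas 2.3.3, numpy 2.4.6, scipy 1.17.1 and matplotlib 3.10.9 did the rest. The members, gene lists and tests were chosen with earlier results of these data known. Named genes were the 10 most enriched sites per table, the 8 largest changes each way, those at the limit of 5, up to 10 genes with 3 or more sites, up to 4 per list, and overlaps, leaving out unnamed symbols except among the 10. Suz12 is among the 8 largest decreases. Alternatives are given in the closing section.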

Additional observations from a re-analysis of the deposited data

Results flagged for a closer look

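Single libraries stood apart from the other 3 of their group at 7 of the named sites. Chance gives about 1 such case in 20 groups, and 168 groups were examined. The 8 cases found are no more than that rate gives, so no library is called aberrant from them. At Mbd5 (chr2:49092101-49093700, susceptible table) susceptible library 32 had 261 reads, above its group, and control library 31 had 282, below its group. Control library 31 was high at Mrpl22, with 113 reads. In the resilient table control library 25 was high at Cops7b, with 98.1 reads, and at Afg3l2, with 225, and control library 34 was low at Zfp850, with 253. Resilient library 33 was high at Zfp873, with 141 reads, and resilient library 30 at Riok1, with 152.

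Of the 157 overlapping pairs of strongly enriched sites, 152 had the same direction in both tables, which share their control libraries. The 5 others had opposite directions. At these, every stressed library lay on one side of the control mean in susceptible mice and on the other side in resilient mice. The overlaps were of 100 to 300 bp, so the windows compared are neighbours rather than the same sequence, and the difference between susceptible and resilient was not tested. Bms1, a ribosome biogenesis factor, had a log2 ratio of −0.36 in susceptible and 0.43 in resilient mice. Zdhhc3, a palmitoyltransferase, had −0.38 and 0.34, Smarcad1, a chromatin remodeller, 0.35 and −0.25, and Ccny, a cyclin, 0.37 and −0.33. A site between genes on chromosome 12 (chr12:22250101-22251200 in the susceptible table) had −0.47 in susceptible and 0.47 in resilient mice.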

How the results depend on the processing

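The number of members follows the limit by construction. It was 3618 and 1862 (susceptible and resilient) at an enrichment of 4, 593 and 318 at 6, and 237 and 163 where both groups had to reach 5. The share of higher sites was 51.1% and 34.4% where both groups had to reach 5. It was 40.7% and 41.2% with a limit of 4 and 26.6% and 27.0% with a limit of 6. Without the regions on chromosomes 12 and 7, an alternative added after seeing the data, it was 38.4% and 31.9%. Leaving out 1 library at a time gave median log2 ratios of −0.34 to −0.28 for susceptible and −0.30 to −0.28 for resilient over control. The share of higher sites, 35.3% and 36.7%, could hardly change there, since the sites were listed for a large group difference. Median-of-ratios scaling, pseudocounts and a minimum of 10 reads did not move these values beyond their spread. Of the members, 0 and 0 passed limma adjusted over all windows. With voom weights, also added after seeing the data, 0 and 0 passed. An unadjusted limma p under 0.05 was found at 1348 and 725 (89.4% and 91.7%), against 96.7% and 97.6% of all autosomal sites. All these sites were listed by a test of the same contrast, and the members were chosen on it again. The adjusted counts also have no share over all autosomal sites beside them, so nothing is read from these counts. At the ELS sites 20 passed the authors' adjusted p, 11 passed limma adjusted over the listed sites alone and 10 passed with voom weights, of 24, against 0 in the main test (over all listed sites 96.7%, 98.2%, 87.9% and 0%); 0 passed with a pseudocount of 5, with an overlap of 500 bp or without any 1 library. A planned edgeR fit was not run, and the voom fit on the recovered reads was run instead. No paired analysis was possible because library numbers differ between the groups. The enrichments are group values with no spread of their own, and few IgG reads stand behind each of them.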
